A study of Oryza sativa with 9 samples.

Results

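Rice roots in salt water held 27 genes that stood apart from every fresh-water root library, 27 of the 57624 nuclear loci in the expression table. They were chosen on the measured values. A gene entered when the lowest of the 3 salt-water libraries had at least 5 FPKM (fragments scaled by transcript length and by the reads mapped in a library) and at least 4 times the highest of the 6 fresh-water libraries. The difference between salt and fresh water is therefore how the genes were found, and it is given as a description with no test.

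The libraries came from 3 groups of 3, named below by group and replicate number, all from roots of plants grown for 1 month. The R1 group is the Normal_Rice_R1 cultivar, labelled common rice, in fresh water (R1 FW). The Sea_Rice_86 cultivar, labelled as salt-water rice, was grown in fresh water (SR86 FW) and in salt water, which the study names sea water (SR86 SW). R1 in SW was not analysed here, so every SW value is from SR86, and a sentence of the methods assigns the strains to the waters the other way round from the labels followed here.

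Salt water is both an osmotic and an ionic stress to a root. Roots bar the inward flow of salt with walls stiffened by lignin and sealed with suberin, polymers built outside the cell from phenolic and lipid units. Peroxidases oxidize the phenolic units, dirigent proteins steer how such radicals couple, and glycosyl hydrolases cut and remodel the wall sugars. The resynthesis of amino acids and the recycling of protein are further processes known to change in stressed roots.

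Across loci, the libraries of a group correlated at 0.927 to 0.995 on the log2 scale. By an estimate from low values every SW library was deeper than every FW library, SR86 SW2 (1.74 relative to R1 FW1) only slightly deeper than R1 FW2 (1.66). Loci of green tissue were drawn from the study's lists of genes that differed. Summed over 12 of them, the libraries had 68.2 to 140 FPKM in SR86 FW, 29.8 to 48.4 FPKM in R1 FW and 29.2 to 42.7 FPKM in SR86 SW. The highest single value was 34.0 FPKM, of LOC_Os01g56680 in SR86 FW1. In 11 of the 12 the SW mean was below the SR86 FW mean.

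By the annotations of the paper's tables, 11 of the 27 genes belong to the cell wall or to extracellular and phenolic chemistry, namely 3 peroxidases, 3 glycosyl hydrolases, a dirigent protein, a glycine-rich wall protein, a lipid transfer protein, a GDSL-like lipase and an O-methyltransferase. A further 3 are enzymes of carbon and nitrogen metabolism, 2 are regulators, 4 are a protease, a cadmium tolerance factor and a pair of defence-type proteins, 1 is a transposon protein, and 6 are annotated only as expressed protein. They lie on 10 chromosomes, with none on chromosomes 8 and 12. The grouping into classes was made here, not by the paper, with the values known. The regulators include an enzyme, gibberellin 2-beta-dioxygenase, and 1 of the defence-type proteins is annotated only as a leucine-rich repeat protein.

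The ratio of the lowest SW to the highest FW library ran from 4.02 to 137, with a median of 6.05. Of the 13135 loci whose lowest SW library reached 5 FPKM, the median ratio was 0.746, and in 2322 (17.7%) every SW library lay above every FW library. The FW library that set the ceiling was an SR86 library in 17 genes and an R1 library in 10. Applied to the other groups, the same rule found 107 genes high only in R1 FW and 6 high only in SR86 FW.

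**Figure D1:**
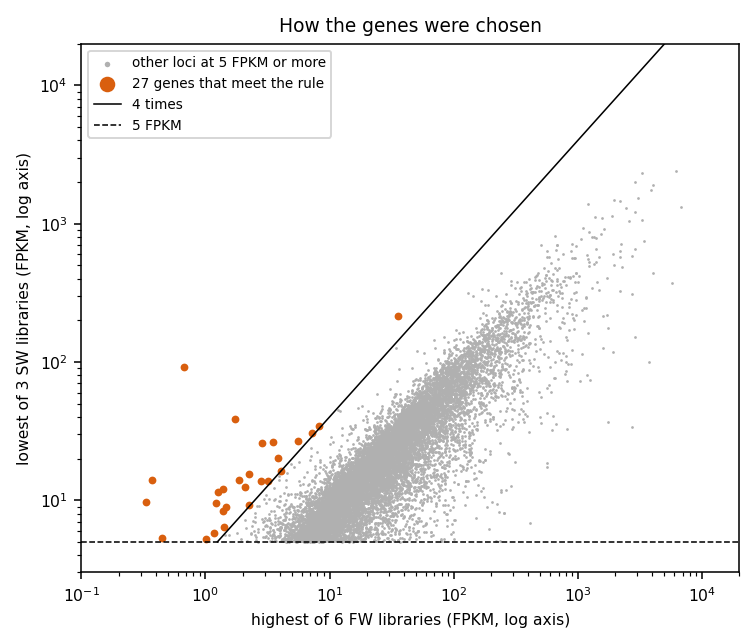
Each point is a locus with at least 5 FPKM in its lowest SW library, placed by its highest FW library (horizontal) and its lowest SW library (vertical), in FPKM on log axes. The 27 genes in orange lie on or above the line of 4 times, most of them at low FW values, and pyruvate, phosphate dikinase stands alone at 35.5 FPKM in FW and 214 FPKM in SW.

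At the ratio threshold, the 3 genes just inside were glutamate synthase LOC_Os05g48200 (4.02), gibberellin 2-beta-dioxygenase LOC_Os07g01340 (4.15) and the glycine-rich wall protein LOC_Os10g31690 (4.19). The 3 just outside were a lectin protein kinase, LOC_Os04g23760 (3.94), a citrate-binding protein, LOC_Os12g07310 (3.88), and a receptor-like kinase, LOC_Os01g59570 (3.81). At the level threshold, peroxidase LOC_Os03g25320 (5.25 FPKM in its lowest SW library), the transposon protein LOC_Os11g06570 (5.34 FPKM) and the disease resistance protein LOC_Os11g40780 (5.83 FPKM) were just inside. Just outside were OsWAK22, LOC_Os02g56400 (4.57 FPKM), an NBS-LRR protein, LOC_Os12g29710 (4.27 FPKM), and an expressed protein, LOC_Os02g37350 (4.24 FPKM). The thresholds cut through a continuous range of values.

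One library limited the set. Without SR86 SW3, 253 genes met the rule, against 30 without SR86 SW1 and 45 without SR86 SW2. Leaving out an FW library gave 27 to 31 genes for R1 and 32 to 40 for SR86. All 27 genes met the rule in each of these 9 cases, since a smaller number of libraries cannot make it harder to meet.

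**Figure D2:**
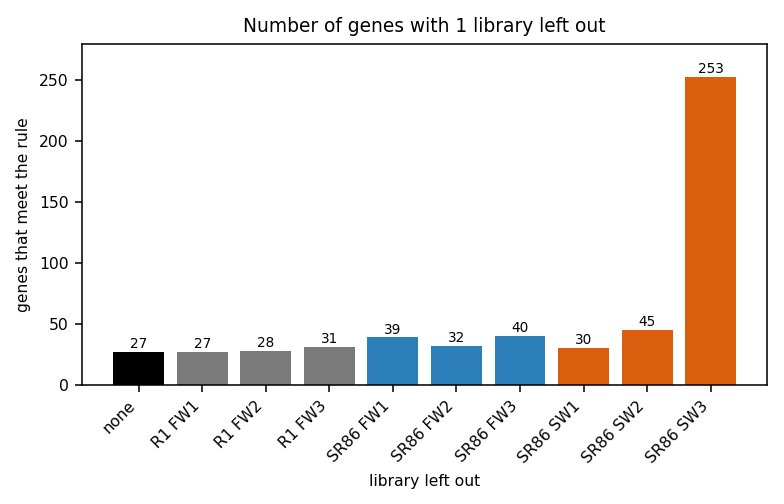
Bars give the number of genes that meet the rule with no library left out (black, 27 genes) and with each library left out in turn, coloured by group. The bar without SR86 SW3 reaches 253 genes and the other 8 lie between 27 and 45.

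The 226 genes kept out by SR86 SW3 alone included 19 of the 66 peroxidases that the study listed. They also held 5 transposon proteins, 3 kinesins, 3 glycosyl hydrolases and 1 resistance protein, and 13 had no listed annotation. Of the 226, 185 were still above every FW library in SR86 SW3. Their low values in SR86 SW3 are how they were picked. Among them, seen only after the values were known, the cellulose synthase CESA8 (LOC_Os07g10770) had 94.1, 88.3 and 32.7 FPKM in the SW libraries and 12.4 to 21.3 FPKM in FW. Summed over 7 root cap loci, SR86 SW1 and SR86 SW2 had 114 and 112 FPKM, SR86 SW3 had 28.7 FPKM and the FW libraries had 7.32 to 27.2 FPKM. Summed over 61 loci of dividing cells, SR86 SW1 and SR86 SW2 had 403 and 408 FPKM, SR86 SW3 had 213 FPKM and the FW libraries had 93.5 to 137 FPKM. The SW mean was above every FW library in 7 of the 7 root cap loci and 53 of the 61 loci of dividing cells, and below the SR86 FW mean in 0 and 3 of them. SR86 SW3 was the lowest SW library in 7 and 57 of them. Both lists were drawn from the genes and gene families that the study listed as differing in these libraries. Their counts and sums are therefore not independent evidence of a direction. None of either list was at 0 throughout, and their part in the values of the 27 genes was not tested. In whole roots, fewer cells of a type and less RNA per cell cannot be told apart.

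The dirigent gene LOC_Os10g18760 had the largest ratio of the 27. Its 3 SW libraries differed by a factor of 1.22, the smallest of any of the 27 genes, whose median factor was 2.33, against 1.29 over all loci with at least 5 FPKM in SW. It was under 1 FPKM in every FW library, as were 3 others: a peroxidase, the transposon protein and the expressed protein LOC_Os01g55060. The tables list 8 other dirigent loci that passed the filter of a mean of 0.5 FPKM in SR86.

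Of these 8 dirigent loci, 2 rose and 1 fell between SR86 FW and SR86 SW (limma, p under 0.05 after Benjamini-Hochberg adjustment and a change of 2-fold or more). Over all 23718 genes tested, 8.41% rose and 4.29% fell. LOC_Os10g18820, numbered close to LOC_Os10g18760 and listed at 0 in every R1 FW library, had 0.3, 0 and 0 FPKM in SR86 FW and 3.41, 17.02 and 10.4 FPKM in SR86 SW. It rose by 3.95 on the log2(FPKM + 0.5) scale (standard error, SE, 0.557, adjusted p = 0.0134 by limma) and lost its call only without SR86 FW2 among the 6 fits that omitted a library. LOC_Os10g18820 was named for its change, from a list of genes that the study found to differ in these libraries. It also met the rule once SR86 SW1 was left out. Its p-value is therefore a description with no test.

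Peroxidases gave 3 of the 27 genes. LOC_Os07g34710 had 39.3, 32.7 and 14.0 FPKM in the SW libraries SR86 SW1, SR86 SW2 and SR86 SW3, and 0.09 to 0.37 FPKM over the 6 FW libraries. LOC_Os05g04500 had 24.6, 46.7 and 15.5 FPKM in SW and 0.58 to 2.23 FPKM in FW. LOC_Os03g25320 had 16.5, 22.8 and 5.25 FPKM in SW, 0.98, 0.96 and 1.01 FPKM in SR86 FW, and 0.3, 0.41 and 0.3 FPKM in R1 FW.

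In each of the 3 peroxidases SR86 SW3 was the lowest SW library, and in LOC_Os03g25320 the SR86 FW libraries lay above those of R1 without overlap. Of the 62 other peroxidases in the tables that could be tested, 24 rose and 3 fell between SR86 FW and SR86 SW. The number called was 41 without SR86 SW3 and 20 without SR86 FW3, but 9 and 3 without SR86 FW1 and SR86 FW2, and 0 and 5 without SR86 SW1 and SR86 SW2. The study drew these annotated lists from genes that differed in these libraries, so their counts are not independent evidence of a direction. The same holds for the p-values of loci named from any of the lists, here and below, which are a description with no test. The largest rise was in LOC_Os10g02040, at 0.36, 1.06 and 1.69 FPKM in SR86 FW and 19.7, 47.9 and 9.02 FPKM in SR86 SW (log2 fold change 3.88, SE 0.622, adjusted p = 0.0168 by limma), a call lost without SR86 SW1, SR86 FW1 or SR86 FW2. It met the rule against SR86 FW alone, which uses the same values, so its p-value is a description with no test. Its R1 FW values of 1.84, 2.32 and 2.71 FPKM together with its SR86 SW3 value kept it out, and without SR86 SW3 it met the rule against both strains.

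The 3 glycosyl hydrolases came from separate families. LOC_Os01g71380 of family 17, which holds beta-glucanases, had 38.3, 59.1 and 20.2 FPKM in SW. It had 3.83, 2.61 and 2.18 FPKM in SR86 FW and 0.23, 0.2 and 0 FPKM in R1 FW. Its 3 groups were thus stepped, with no overlap between any of them.

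LOC_Os11g18730 of family 3 had 15.2, 31.3 and 12.4 FPKM in SW and 0.78 to 2.09 FPKM in FW, where R1 and SR86 overlapped. LOC_Os04g40490 of family 5 had 10.9, 6.45 and 9.41 FPKM in SW and 0.62 to 1.41 FPKM in FW. It is the only one of the 3 whose lowest SW library was SR86 SW2. Beside it, LOC_Os04g40500, of the same family, rose by 1.80 on the log2 scale (SE 0.285, adjusted p = 0.0164 by limma), from 2.21, 3.59 and 1.61 FPKM in SR86 FW to 9.39, 8.37 and 10.8 FPKM in SW, a call lost without SR86 SW1 or SR86 SW2. Reads shared by near-identical copies were divided between them by the authors' program, so the values of neighbouring copies are uncertain. Of 48 other glycosyl hydrolases tested, 10 rose and 3 fell, and 0 to 17 were called with a library left out, 0 without SR86 SW1.

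The other wall and extracellular genes spanned a wide range of levels. The glycine-rich wall structural protein LOC_Os10g31690 had 74.5, 62.3 and 34.2 FPKM in SW, 8.18, 3.59 and 5.98 FPKM in SR86 FW and 2.8, 3.47 and 3.22 FPKM in R1 FW. LTPL139 (LOC_Os10g40430), of the lipid transfer proteins, had 34.1, 18.3 and 8.86 FPKM in SW, 0.62, 0.26 and 1.46 FPKM in SR86 FW and at most 0.07 FPKM in R1 FW. The O-methyltransferase LOC_Os11g12760, of a family that methylates phenolics among other compounds, had 39.9, 12.1 and 12.3 FPKM in SW.

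In all of these 3 genes SR86 SW1 was the highest SW library and every SR86 FW library lay above every R1 FW library. The GDSL-like lipase LOC_Os03g25030, of a family of ester hydrolases, had 18.7, 31.4 and 13.9 FPKM in SW and 0.6 to 3.22 FPKM in FW, where the strains overlapped. Of the 11 wall and extracellular genes, 9 were lowest in SR86 SW3 and 2 in SR86 SW2.

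**Figure D3:**
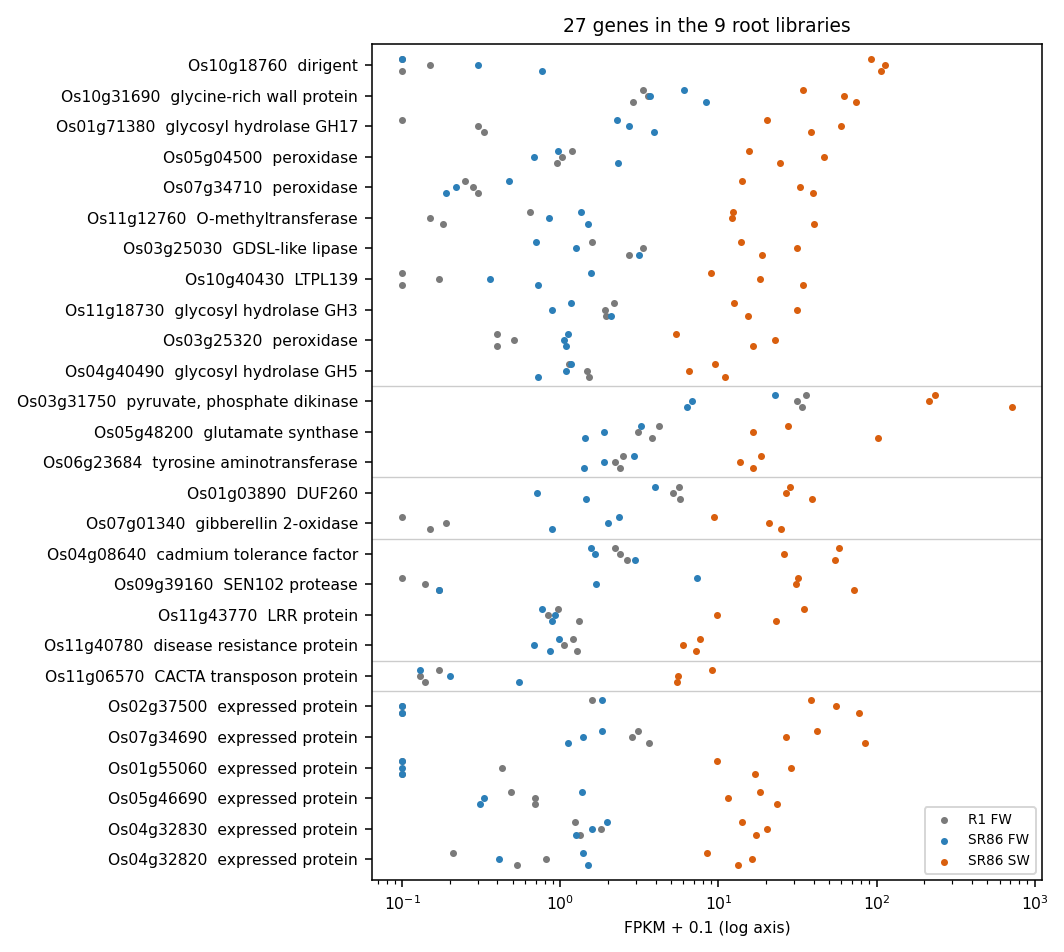
Points give FPKM + 0.1 on a log axis for each of the 27 genes (rows, grouped by class) in the 9 libraries, grey for R1 FW, blue for SR86 FW and orange for SR86 SW. The orange points are to the right of all others in each row, as the rule requires, while the grey and blue points overlap in 17 rows. Over nuclear loci past the filter, SR86 FW lay wholly above R1 FW in 23.5% and wholly below it in 27.4%.

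Metabolic enzymes held the most abundant of the 27 transcripts. Pyruvate, phosphate dikinase LOC_Os03g31750, which makes phosphoenolpyruvate from pyruvate, had 718, 214 and 233 FPKM in SW. It had 6.21, 6.66 and 22.8 FPKM in SR86 FW and 33.7, 31.1 and 35.5 FPKM in R1 FW. SR86 SW1 thus had about 3 times the level of the other SW libraries, and in FW it was SR86 that was lower.

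The tables list a second such locus with a different order. LOC_Os05g33570, singled out after its values were seen, had 316, 234 and 367 FPKM in R1 FW, 55.4, 23.5 and 94.0 FPKM in SR86 FW and 36.5, 62.2 and 79.8 FPKM in SR86 SW. Its log2 fold change between SW and SR86 FW was 0.19 (SE 0.518, adjusted p = 0.814 by limma), so a rise was not detected there.

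Glutamate synthase LOC_Os05g48200, which makes glutamate from glutamine, had 102, 16.4 and 27.6 FPKM in SW and 1.33 to 4.08 FPKM in FW. Its SW libraries differed by a factor of 6.20, the widest of the 27. Tyrosine aminotransferase LOC_Os06g23684, which removes the amino group of tyrosine, was nearly level at 16.3, 13.7 and 18.6 FPKM in SW and had 1.31 to 2.81 FPKM in FW. All 3 enzymes were lowest in SR86 SW2.

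Of 12 other carbon and nitrogen enzymes tested, 2 rose, 1 fell and the median log2 fold change was 0.01, against 0.17 over all genes tested. Another glutamate synthase, LOC_Os01g48960, rose from 8.80, 8.64 and 24.0 FPKM in SR86 FW to 45.6, 25.3 and 40.1 FPKM in SW (log2 fold change 1.51, SE 0.425, adjusted p = 0.0495 by limma), and its R1 FW libraries, at 34.1, 26.4 and 37.1 FPKM, lay within the SW range. A glutamine synthetase, LOC_Os04g56400, rose by 1.42 on the log2 scale (SE 0.287, adjusted p = 0.0251 by limma). The first call was kept in 1 of the 6 fits that omitted a library, the one without SR86 FW3, and was lost with a pseudocount of 0.1, no filter or another scaling, and the second was lost without SR86 SW1, SR86 SW2 or SR86 FW2. With SR86 SW1, SR86 SW2 or SR86 FW2 left out 0 of the 12 were called.

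Both regulators were highest in SR86 SW1. The DUF260 gene LOC_Os01g03890, whose domain is that of the plant LOB transcription factors, had 39.0, 26.7 and 28.1 FPKM in SW. Its FW values were 1.35, 0.61 and 3.85 FPKM in SR86 and 5.61, 5.03 and 5.5 FPKM in R1, with R1 the higher. Gibberellin 2-beta-dioxygenase 7 (LOC_Os07g01340), of a family that inactivates gibberellins, had 24.7, 20.8 and 9.29 FPKM in SW. In FW it had 0.78, 1.89 and 2.24 FPKM in SR86 and 0.05, 0.09 and 0 FPKM in R1, with SR86 the higher. The regulators were thus ordered oppositely between the strains in FW.

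The thiol protease SEN102 precursor LOC_Os09g39160, of the papain-like cysteine proteases, had 71.9, 30.9 and 31.6 FPKM in SW. In SR86 FW it had 0.07, 1.59 and 7.22 FPKM, and in R1 FW at most 0.07 FPKM. The ratio of 4.27 was set by SR86 FW3. Of the 4 other vignain and SEN102 proteases tested, 3 rose and 1 fell, and 0 were called without SR86 SW1 or without SR86 SW2. LOC_Os09g39070 had 1.23, 9.14 and 6.97 FPKM in SR86 FW, 52.5, 62.7 and 54.2 FPKM in SR86 SW (log2 fold change 3.51, SE 0.605, adjusted p = 0.0186 by limma), and 43.6, 35.3 and 43.7 FPKM in R1 FW. The call was lost without SR86 SW1 or SR86 SW2. The gene was kept out of the 27 by R1, where LOC_Os09g39160 was near 0. Against SR86 FW alone LOC_Os09g39070 met the rule, so its p-value is a description with no test.

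The cadmium tolerance factor LOC_Os04g08640 had 54.6, 25.7 and 57.4 FPKM in SW and 1.47 to 2.87 FPKM in FW, with R1 and SR86 overlapping. Of 9 other loci with this annotation, 6 rose and 0 fell, and 0 were called without SR86 SW1 or without SR86 FW2. LOC_Os06g19210 rose from 0.58, 0.13 and 0.43 FPKM to 25.2, 7.16 and 38.0 FPKM (log2 fold change 4.52, SE 0.592, adjusted p = 0.0125 by limma). This call was lost without SR86 SW1 or SR86 FW2. Since LOC_Os06g19210 met the rule against SR86 FW alone, its p-value is a description with no test. In both of these loci SR86 SW2 was the lowest SW library and SR86 SW3 the highest.

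Of the defence-type proteins, the leucine-rich repeat protein LOC_Os11g43770 had 23.1, 9.62 and 34.8 FPKM in SW and 0.66 to 1.21 FPKM in FW. The disease resistance protein LOC_Os11g40780 had 7.16, 5.83 and 7.49 FPKM in SW and 0.58 to 1.17 FPKM in FW. Both were lowest in SR86 SW2 and highest in SR86 SW3. Of 107 other resistance proteins tested, 47 rose and 1 fell. With a library left out 0 to 54 were called, 0 without SR86 SW1, and 28 without SR86 SW3. The largest rise was in LOC_Os11g38480, of the NBS-LRR type, from 0.62, 1.05 and 3.13 FPKM to 25.1, 6.56 and 9.89 FPKM (log2 fold change 2.74, SE 0.597, adjusted p = 0.0291 by limma), a call lost with no filter and without SR86 SW1, SR86 SW2, SR86 FW1 or SR86 FW2. As a locus picked from such a list, its p-value is a description with no test.

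The CACTA transposon protein LOC_Os11g06570 had the lowest mean in SW of the 27, 6.59 FPKM, with 5.34, 5.46 and 8.96 FPKM in SW and 0.03 to 0.45 FPKM in FW. It was the only one of the 27 that was lowest in SR86 SW1. Of 245 other transposon and retrotransposon proteins tested, 52 rose and 23 fell, and 0 were called without SR86 SW1.

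The 6 expressed proteins have no known role here. LOC_Os02g37500 had the highest mean in SW of the 6, at 57.2 ± 19.5 FPKM (SD, n = 3), and was listed at 0 in 4 of the 6 FW libraries. LOC_Os01g55060 had 16.96, 28.8 and 9.75 FPKM in SW. It was at 0 in each of the SR86 FW libraries and had 0, 0.33 and 0 FPKM in R1 FW. LOC_Os05g46690 had 23.3, 11.47 and 18.3 FPKM in SW and 0.21 to 1.26 FPKM in FW.

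Only 2 pairs of the 27 lay within 5 loci of each other. LOC_Os04g32820 and LOC_Os04g32830 are adjacent, with 13.2, 16.3 and 8.41 FPKM and with 17.1, 20.2 and 13.9 FPKM in SW, the same order of libraries. LOC_Os07g34690 and the peroxidase LOC_Os07g34710 lie close together, and here the order differed, with 84.2, 26.5 and 41.9 FPKM in the first, lowest in SR86 SW2, and the lowest value of the second in SR86 SW3. In FW, LOC_Os07g34690 had 1.02 to 1.73 FPKM in SR86 and 2.75 to 3.51 FPKM in R1.

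Around the 27 genes, 251 other loci lay within 5 places by locus number, and 114 of them could be tested between SR86 FW and SR86 SW. Of these, 22 rose and 3 fell, beside the 8.41% that rose and 4.29% that fell of all genes tested, and the median log2 fold change was 0.41, against 0.17 over all genes tested. With a library left out the number called was 30 without SR86 SW3 and 26 without SR86 FW3, but 10 and 2 without SR86 FW1 and SR86 FW2, and 1 and 5 without SR86 SW1 and SR86 SW2. Over these neighbours and all annotated lists together, 237 of 665 were called, and 67, 25 and 47 without SR86 FW1, SR86 FW2 and SR86 SW2. Without SR86 SW1 it was 2 of 658, of which 324 had an unadjusted p under 0.05, and the median log2 fold change was 0.82 both with and without that library. Over all genes 12.7% were called. Without SR86 SW1, 60 of all 23553 genes were called and 6677 had an unadjusted p under 0.05. Of the 665, 567 were list genes, drawn by the study from genes that differed in these libraries. Their calls, small p-values and raised median are therefore not independent evidence of a direction. Rescaling by median-ratio size factors or quantile normalization lowered the median of all genes to 0.02 and 0.01, and that of the neighbours to 0.26 and 0.16, and 18 and 15 of the neighbours rose. Loci this close can overlap or be copies of each other, so some of these values may share reads.

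Beside LOC_Os02g37500, LOC_Os02g37540, an expressed protein, had 0.13, 0.27 and 0.66 FPKM in SR86 FW and 15.9, 13.9 and 17.3 FPKM in SR86 SW (log2 fold change 4.29, SE 0.283, adjusted p = 0.006 by limma), called in all 6 fits that omitted a library. As LOC_Os02g37540 met the rule against SR86 FW alone, that result is a description with no test. In R1 FW this neighbour had 2.66 to 4.46 FPKM, in between the SR86 values in FW and SW, whereas LOC_Os02g37500 was at 0 in R1 FW1 and R1 FW2 and at 1.48 FPKM in R1 FW3. Around LOC_Os11g43770, 5 of the 10 loci were called higher, a count noticed after the values were seen. Their adjusted p ran from 0.0224 to 0.0481 in limma, and each kept its call in 1 to 3 of the 6 fits that omitted a library.

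R1 mattered for which genes were chosen. Against SR86 FW alone 57 genes met the rule, and R1 FW kept out 30 of them. In 4 of the 30 an R1 FW library reached the range of the SW libraries. The 30 were chosen on their SR86 SW and SR86 FW values. Their limma results between these groups follow from that choice and are given as a description with no test. WRKY82 (LOC_Os05g14370), of the WRKY transcription factors, had 4.23, 1.23 and 3.68 FPKM in SR86 FW, 82.7, 33.0 and 97.4 FPKM in SW (log2 fold change 4.32, SE 0.522, adjusted p = 0.011 by limma), and 9.75, 8.05 and 12.7 FPKM in R1 FW. The wall-associated kinase OsWAK105 (LOC_Os10g06140) had 0.43, 1.26 and 1.24 FPKM in SR86 FW, 18.6, 14.0 and 10.1 FPKM in SW (log2 fold change 3.34, SE 0.349, adjusted p = 0.00972 by limma), and 7.64, 5.45 and 9.13 FPKM in R1 FW. In both the R1 libraries lay between those of SR86 in FW and in SW, and the call was lost only without SR86 SW1 when a library was omitted.

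The WRKY, OsWAK and kinesin lists gave none of the 27 genes. Of 23 WRKY loci tested 6 rose and 3 fell, of 16 OsWAK loci 6 rose and 0 fell, and of 33 kinesins 27 rose and 0 fell, with 0 called in any of these lists without SR86 SW1. The largest kinesin rise was in LOC_Os03g18980, from 0.28, 0.52 and 0.56 FPKM to 6.48, 6.32 and 3.40 FPKM (log2 fold change 2.59, SE 0.314, adjusted p = 0.011 by limma), again lost only without SR86 SW1. This p-value too belongs to a locus picked from a list and is a description with no test. As genes of salt and dehydration stress, only 1 late embryogenesis abundant and 3 dehydrin loci, picked by name, were looked up, and they were not among the 27 either. Summed over these loci, SW libraries had 4.05 to 17.9 FPKM, R1 FW libraries 25.5 to 40.7 FPKM and SR86 FW libraries 13.6 to 691 FPKM, the highest being SR86 FW1. The 7 root cap loci above, annotated also as late embryogenesis related, went the other way, with SW means above every FW library.

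The SW libraries did not rank the 27 genes alike. SR86 SW1 was the highest in 13, SR86 SW2 in 9 and SR86 SW3 in 5, and the lowest was SR86 SW3 in 14, SR86 SW2 in 12 and SR86 SW1 in 1. Over all loci with at least 5 FPKM in SW, each library was the lowest in 29.5% to 37.0%. The same counts held for the 27 genes after median-ratio rescaling.

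**Figure D4:**
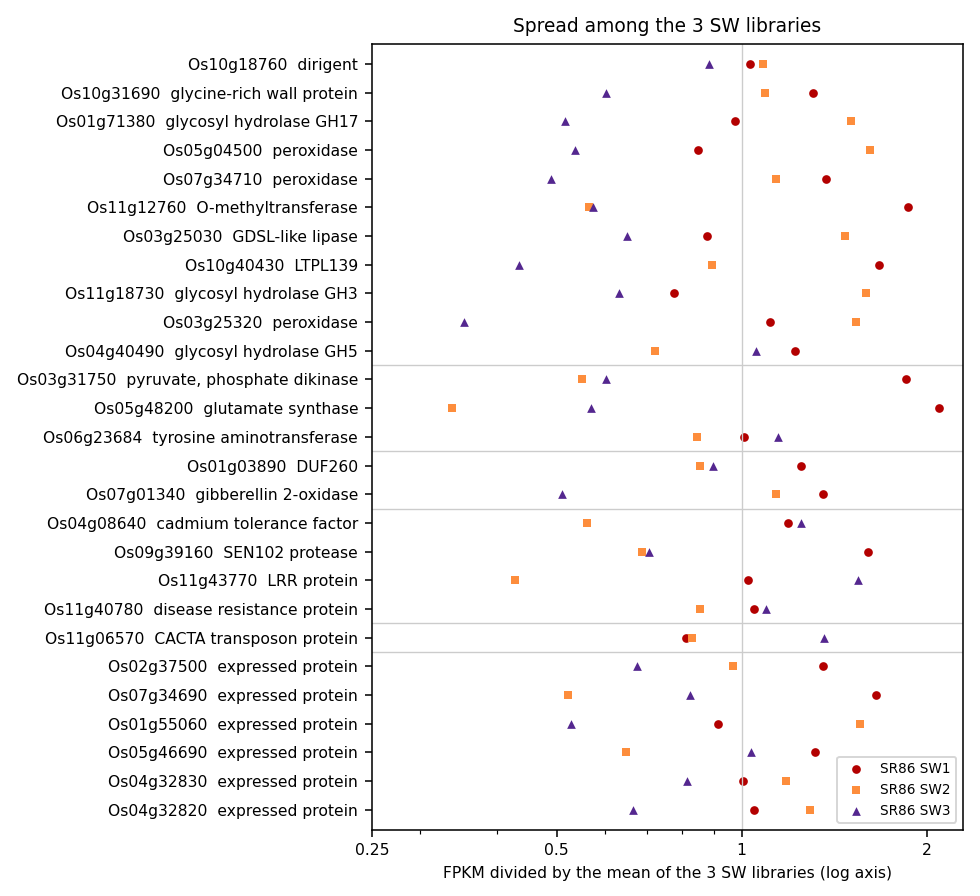
For each of the 27 genes (rows, grouped by class) the 3 SW libraries are plotted as FPKM divided by their mean on a log axis. Triangles (SR86 SW3) lie leftmost in 9 of the 11 wall and extracellular genes at the top, and squares (SR86 SW2) lie leftmost in all 7 of the metabolic, protease, metal and defence genes.

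The difference between the strains in fresh water was not itself a criterion, but the rule puts its ceiling on these same 6 libraries, so the genes are limited to low values in both strains and the comparison is not fully independent of the rule. In 6 of the 27 every SR86 FW library was above every R1 FW library and in 4 every one was below, where 23.5% and 27.4% of the nuclear loci past the filter were so placed. These shares leave out loci under the filter, whereas 5 of the 27 did not pass it, among them LOC_Os10g40430, 1 of the 6. Of the 27, 22 reached a mean of 0.5 FPKM over the 6 FW libraries and were tested, and 4 were called, 3 higher and 1 lower in SR86 (limma, as above), where 14.1% of the 23168 genes tested were called, 6.85% higher and 7.22% lower. The 3 called higher averaged 0.0467 to 0.223 FPKM in R1 FW and passed the filter through SR86, so the count of calls is a description and nothing is read from it. With no filter all 27 were tested and 3 were called, the same 3 higher genes, where 4.26% of 36441 genes were called higher. The 5 not tested with the filter were LOC_Os01g55060, LOC_Os07g34710, LOC_Os10g18760, LOC_Os10g40430 and LOC_Os11g06570.

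The family 17 glycosyl hydrolase LOC_Os01g71380 was higher in SR86 by 2.38 on the log2 scale (SE 0.263, adjusted p = 0.00193 by limma), and kept its call in all 6 fits with a library left out, as did gibberellin 2-beta-dioxygenase LOC_Os07g01340, higher by 1.90 (SE 0.315, adjusted p = 0.00833 by limma). The O-methyltransferase LOC_Os11g12760 had 1.39, 0.75 and 1.25 FPKM in SR86 FW and 0.08, 0.05 and 0.54 FPKM in R1 FW, a log2 fold change of 1.21 (SE 0.316, adjusted p = 0.0323 by limma). It lost its call without R1 FW1, R1 FW2 or SR86 FW1. The genes called higher in SR86 passed the filter through SR86, so their p-values and kept calls are a description with no test. Pyruvate, phosphate dikinase LOC_Os03g31750 was lower in SR86, with a log2 fold change of -1.71 (SE 0.468, adjusted p = 0.0377 by limma), and kept its call only without SR86 FW3, with adjusted p from 0.0887 to 0.125 in the other 5 such fits. Reads of both strains were mapped to 1 transcript set, so a low level and sequence that maps poorly cannot be told apart.

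Other genes missed a threshold. LOC_Os07g34690 (log2 fold change -0.97, adjusted p = 0.0183 by limma) and peroxidase LOC_Os03g25320 (0.83, adjusted p = 0.0161 by limma) passed on p and fell short of 2-fold. DUF260 gene LOC_Os01g03890, at -1.50 (SE 0.472), had an adjusted p of 0.0547 in limma and was called under 4 other settings with all libraries. The SEN102 protease LOC_Os09g39160, at 1.97 (SE 0.865, adjusted p = 0.128 by limma), was called without SR86 FW1. Both LOC_Os03g25320 and LOC_Os09g39160 averaged under 0.5 FPKM in R1 FW and passed the filter through SR86. Their p-values are therefore a description with no test.

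**Figure D5:**
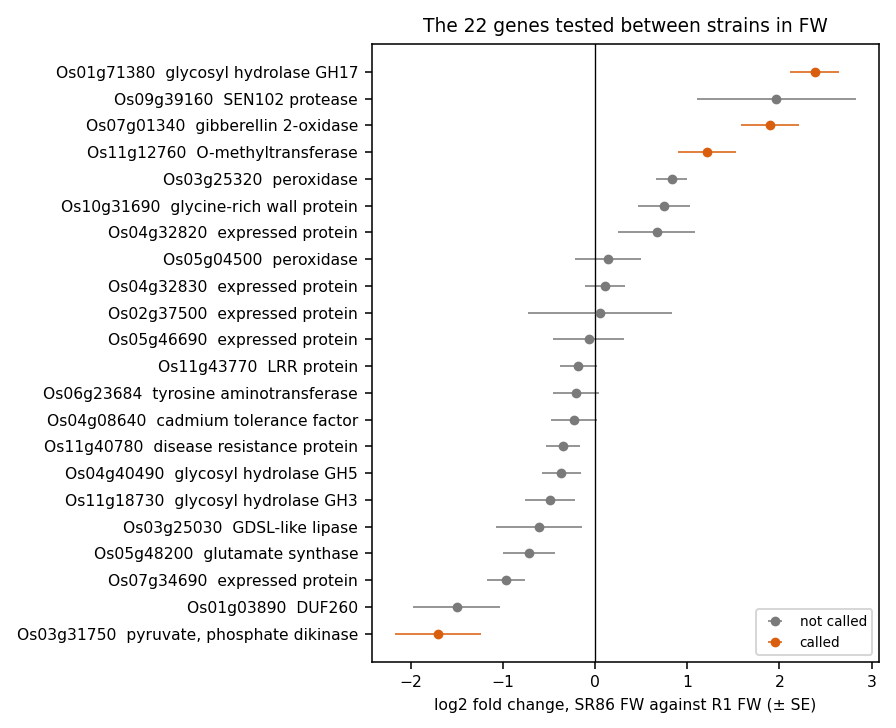
Points give the log2 fold change of SR86 FW against R1 FW, on log2(FPKM + 0.5), with standard errors as bars, for the 22 of the 27 genes that were tested. The 3 called higher run from 1.21 to 2.38, the 1 called lower is pyruvate, phosphate dikinase at -1.71, and the others are in grey. The 3 called higher passed the filter through SR86, so their calls are a description.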

How the data were processed

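The authors mapped trimmed reads of 9 stranded mRNA libraries to the MSU6 transcript set with Bowtie2, estimated expression with RSEM and deposited FPKM values with 2 decimals. Each column could be assigned to a labelled library (0 left over) and 0 values were missing. The study tested with edgeR, which needs counts, so it was not run here. Read totals are not given. The steps of low values put the depth relative to R1 FW1 at 0.949 (SR86 FW1) to 2.40 (SR86 SW3), an estimate without an error. By it every SW library was deeper than every FW library, with SR86 SW2 (1.74) close to R1 FW2 (1.66). Values near 0 in FW would thus rest on fewer reads.

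The members and lists were chosen with earlier results of these data known. The 27 genes were found by the stated rule on raw FPKM. A gene was tested when it averaged 0.5 FPKM or more in the 6 libraries of a comparison, on log2(FPKM + 0.5), a scale that understates the change of low genes, with limma 3.58.1 in R 4.3.3 (trend, Benjamini-Hochberg adjustment over all genes tested). A call needed an adjusted p under 0.05 and 2-fold. The study's methods call the replicates biological, and the sources used here do not say how plants or cultures were divided among them. No single value can reach an exact two-sided permutation p below 0.1 with 3 against 3. Annotations come from the paper's tables, some shortened, and 0 of the table's IDs were found in RefSeq, so no sequences are shown. Named were genes with the highest SW level, the largest ratio, another of the 27 within 5 loci, an annotation in a list, a strain call or a place at a threshold, and the 2 called loci per list with the largest change, of which 1 is not reported here. Others are said to be chosen on sight, and some wall, enzyme and regulator genes are given to account for all 27. In simulated data with these means and spreads, 93.5% (strains) and 89.0% (waters) of 200 genes changed by a log2 value of 3 were called. The changed genes were drawn from those with a mean log2(FPKM + 0.5) above 1 in the reference group, with independent noise. The shares therefore do not hold for lower genes or for libraries that deviate as a whole. Alternatives were other pseudocounts, filters, scalings, thresholds, a replicate block, all 9 libraries in 1 fit and each library left out. Python 3.11.15, pandas 2.3.3, numpy 2.4.6 and matplotlib 3.10.9 were used.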

Additional observations from a re-analysis of the deposited data

How the results depend on the processing

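The number of genes that meet the rule was 45 at 2 FPKM, 145 at 2 times, 8 at 8 times, 57 with SR86 FW alone under the ceiling, 372 with group means in place of the lowest and highest library, 23 with median-ratio size factors and 20 with quantile normalization. Under both scalings LOC_Os03g25030, LOC_Os05g48200, LOC_Os10g31690 and LOC_Os11g06570 no longer met the rule. With quantile normalization LOC_Os04g40490, LOC_Os07g01340 and LOC_Os11g40780 failed it too. With a library left out the number ran from 27 to 253. Of the 27 genes, 2 were called between the strains with a filter at a mean of 1 FPKM, and 2 to 6 with a library left out. Genes called between the strains numbered 3261, and 1646 to 4761 with a library left out. Between SR86 SW and SR86 FW 3012 genes were called (66.2% higher, but 46.0% with quantile normalization and 51.3% with median-ratio size factors), 1804 with no filter, and 60 to 3822 with a library left out, with 60 without SR86 SW1. Of the 665 neighbours and list genes tested 237 were called, 142 with no filter, and 2 to 244 with a library left out.

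Replicate numbers were not used as pairs in the main fits. Deviations of same-numbered libraries correlated at -0.03, 0.22 and 0.26 between the strains and at -0.06, 0.00 and 0.15 between the waters. The own number gave the highest correlation for SR86 FW2 and SR86 FW3 between the strains and for SR86 SW3 between the waters. Whether the libraries were paired cannot be told from these values. With replicate number as a block 3489 genes and 5 of the 27 were called between the strains, and 2048 genes and 156 of the neighbours and list genes between the waters. No gene of the 27 that was called between the strains turned its sign under an alternative. Between the waters the majority of calls turned from higher to lower with quantile normalization and also without SR86 SW1, SR86 SW2, SR86 FW1 or SR86 FW2 (36.7% to 49.1% higher).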
